A study of Danio rerio with 11 samples.

Results

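Condensins are the ring-shaped protein complexes that fold chromatin into compact chromosomes when a cell divides. The 8 genes described here encode the subunits of condensin I and condensin II: ncaph, ncapg and ncapd2 for condensin I, ncaph2, ncapg2 and ncapd3 for condensin II, and smc2 and smc4, which both complexes share. They were picked by subunit name out of 30243 genes measured, and the set was drawn up because ncaph was nearly absent from aldh3a1 knockout embryos in these libraries. The level of ncaph in the 2 genotypes is therefore given as a description with no test. The other 7 subunits belong to the set through the complexes, and the question put to the data was whether they follow ncaph.

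RNA came from whole zebrafish embryos, 48 hours after fertilisation. All groups carried TG(fli1:EGFP), a transgene that marks blood vessel cells in green. There were 6 libraries of genotype aldh3a1_KO, labelled as a knockout of the aldehyde dehydrogenase gene aldh3a1, and 5 of genotype WT. The labels do not say whether a library is a separate clutch or pool, so the p-values here describe spread among 11 libraries that may be technical repeats. Embryos were raised in E3 medium, some with the pigment blocker PTU, and which libraries had it is not given.

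In each condensin, SMC2 and SMC4 are long coiled-coil ATPases joined at one end, a kleisin subunit (NCAPH in condensin I, NCAPH2 in condensin II) closes the ring at the other, and 2 HEAT-repeat subunits (NCAPG with NCAPD2, or NCAPG2 with NCAPD3) bind the kleisin. Condensin II stays in the nucleus throughout the cell cycle, whereas condensin I reaches chromosomes after the nuclear envelope breaks down. In zebrafish, loss of ncapg is known to kill dividing cells of the retina, and in an embryo of this age the subunits are used mainly by dividing progenitors.

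The libraries held 9.22 to 17.2 M estimated counts (M, mega) in aldh3a1_KO and 18.1 to 19.97 M in WT. The 13 mitochondrially encoded genes took 5.01 to 25.9% of counts in aldh3a1_KO, highest in replicates 1, 5 and 6, and 4.63 to 5.62% in WT. The targeted gene aldh3a1 was at 3.77 ± 1.20 CPM in aldh3a1_KO and 5.79 ± 1.30 CPM in WT (CPM, reads per mega-read of a library after scaling; SD, n = 6 and 5, edgeR adjusted p = 0.0621). The groups overlapped, and the gene was called lower in 3 alternatives, all on TPM scales (limma adjusted p of 0.0300 to 0.0388). All 6 markers of a whole embryo were present, with the lens gene cryaa lowest at 4.02 CPM in aldh3a1_KO and 27.6 CPM in WT. Of them the neuronal gene elavl3 rose and the muscle, skin, endothelial, erythroid and lens markers actc1b, krt4, fli1, hbbe1.1 and cryaa fell (edgeR adjusted p of 1.52e-05 to 0.0481), although actc1b did not pass in 12 alternatives and hbbe1.1 in 5. The part that tissue makeup plays in the condensin values was not tested, and in whole embryos fewer cells of a type and less RNA per cell cannot be told apart.

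Across the genome 55.3% of 22182 genes tested passed an edgeR adjusted p of 0.05, with 29.3% called lower and 26.0% called higher in aldh3a1_KO. The higher calls were 47.0% of all calls here, 53.6% under upper-quartile scaling, 52.9% when no filter was used, 52.0% under DESeq2 size factors and 35.5% on log2(TPM + 1). The median gene had a log2 fold change of -0.12, against -0.00055, 0.01, -0.03 and -0.26 under these 4 alternatives in the same order.

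The condensin I kleisin gene ncaph (Entrez gene 570062) was all but missing from the knockout libraries. Its TPM (transcript abundance, which the authors scaled for length and depth) was 0.0335, 0, 0, 0, 0 and 0.0361 in aldh3a1_KO replicates 1 to 6, and 7.09, 5.35, 13.7, 7.61 and 21.7 in WT replicates 1 to 5. Behind these stand 2 rounded counts in the 6 aldh3a1_KO libraries, from replicates 1 and 6, and 2782 counts in the 5 WT libraries. The summed counts, scaled for library size, put aldh3a1_KO at 0.0973% of the WT level, with a 95% exact interval of 0.0118 to 0.352% that covers counting error only. WT replicate 5 held 1127 of the WT counts, more than any other library, and without it the value was 0.129%. Without aldh3a1_KO replicate 1 or replicate 6 it was 0.0617 and 0.0610%, since 1 count then remained, and without replicates 1, 5 and 6 no count remained, with an exact upper limit of 0.310% (0.252% by a floor of 3 counts). No gene overlaps ncaph in the gene table. The spans of ncapg, ncaph2, ncapd2 and smc4 each overlap at least 1 other gene there, and the effect on their counts was not tested. A 0 here and below means that no read was assigned to the gene's transcript models. Whether the RNA itself was absent or its reads were left unassigned was not tested, since the reads were not used here.

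The condensin II kleisin gene ncaph2 stayed detectable throughout. It had 7.02, 15.6, 12.4, 13.1, 5.20 and 9.40 TPM in aldh3a1_KO replicates 1 to 6, and 20.95, 21.4, 21.8, 16.1 and 14.5 TPM in WT replicates 1 to 5. Replicate 2 of aldh3a1_KO lay above the lowest WT library, so the groups overlapped. The gene fell by 0.67 ± 0.22 on the log2 scale (SE, edgeR adjusted p = 0.0186), and without aldh3a1_KO replicate 1 the adjusted p was 0.0677, as it was 0.0624 without replicates 1, 5 and 6. The ratio of ncaph to ncaph2 in TPM was at most 0.00478 in aldh3a1_KO and ran from 0.249 to 1.50 in WT, where replicate 5 was the only library with more ncaph than ncaph2.

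**Figure D1:**
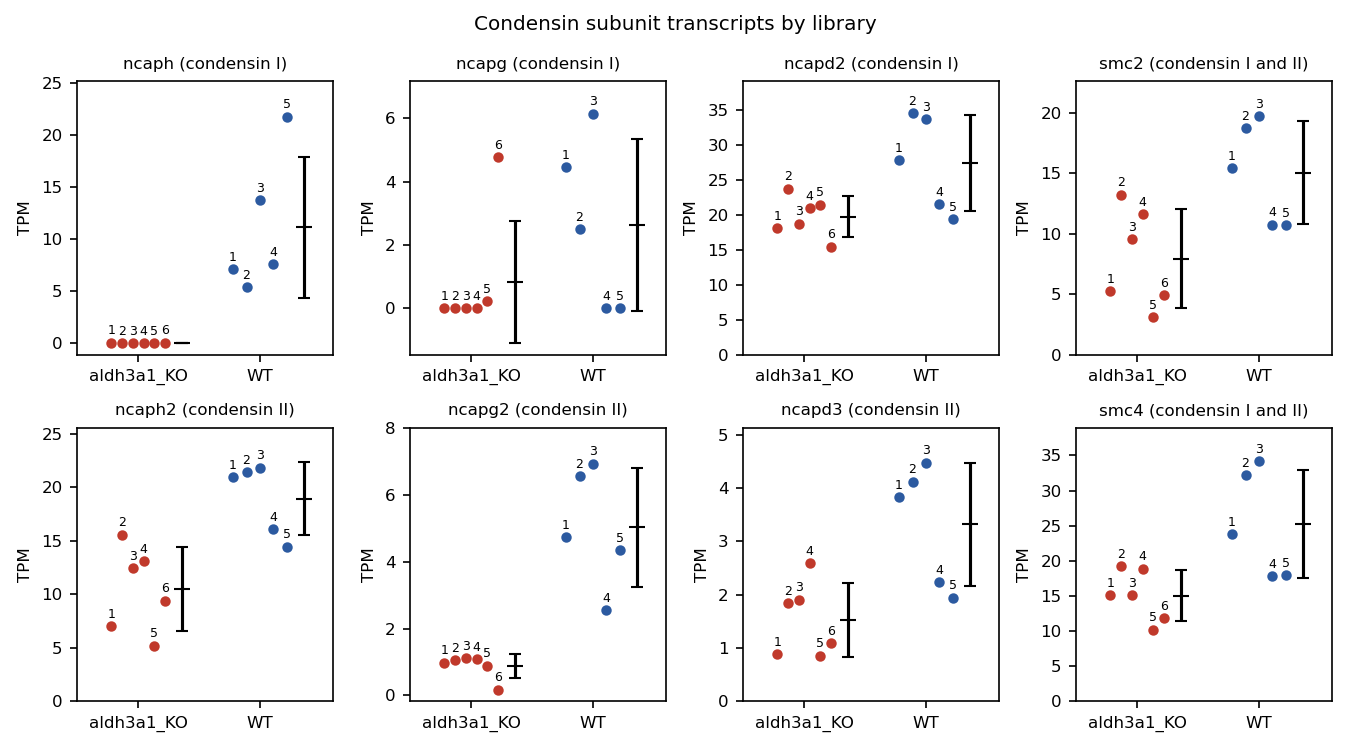
TPM of the 8 condensin subunit genes in every library, aldh3a1_KO left of WT, with replicate numbers above the points and black bars for the mean and SD. The ncaph panel shows all 6 aldh3a1_KO libraries at or near 0, ncapg is at 0 in libraries of both genotypes, and ncapg2 is the only other gene whose groups do not overlap.

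Among the HEAT-repeat subunits the sharpest difference was in condensin II. The ncapg2 gene had 0.977, 1.05, 1.12, 1.08, 0.892 and 0.170 TPM in aldh3a1_KO replicates 1 to 6, and 4.75, 6.58, 6.95, 2.55 and 4.35 TPM in WT replicates 1 to 5. Every knockout library was below every WT library, and replicates 1 to 5 of aldh3a1_KO lay within a narrow band with replicate 6 below it. The gene fell by 2.31 ± 0.34 on the log2 scale (edgeR adjusted p = 0.000104). That call was made in all 23 alternatives, with adjusted p from 4.41e-09 to 0.000435. NCAPG2 is the HEAT-repeat partner of the NCAPH2 kleisin, not of NCAPH.

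The other condensin II HEAT-repeat gene, ncapd3, had 0.879, 1.84, 1.90, 2.59, 0.855 and 1.09 TPM in aldh3a1_KO, and 3.84, 4.12, 4.48, 2.23 and 1.94 TPM in WT. Replicate 4 of aldh3a1_KO was above WT replicates 4 and 5. It fell by 0.96 ± 0.26 on the log2 scale (edgeR adjusted p = 0.00723). Without aldh3a1_KO replicates 1, 5 and 6, which have the highest mitochondrial shares, the log2 fold change was -0.62 (adjusted p = 0.0751).

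The condensin I HEAT-repeat gene ncapd2 was the most abundant subunit per length in both genotypes and, of the 6 with counts in every library, had the log2 fold change nearest 0. It had 18.1, 23.8, 18.7, 20.97, 21.5 and 15.4 TPM in aldh3a1_KO, and 27.8, 34.6, 33.7, 21.5 and 19.4 TPM in WT. Its log2 fold change was -0.24 ± 0.18 (edgeR adjusted p = 0.262). It passed in 1 alternative, voom with quality weights (-0.49, adjusted p = 0.0113), and the adjusted p reached 0.655 in the others.

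The second condensin I HEAT-repeat gene, ncapg, varied so much between libraries of each genotype that whether it followed ncaph cannot be told. It was at 0 TPM in aldh3a1_KO replicates 1 to 4, at 0.219 in replicate 5 and at 4.78 in replicate 6, and at 4.47, 2.50 and 6.16 in WT replicates 1 to 3 and 0 in WT replicates 4 and 5. In rounded counts that is 7 and 241 in the last 2 knockout libraries and 308, 161 and 378 in the first 3 WT libraries, against 0 elsewhere. Each genotype thus held libraries with none and libraries with over 100 counts, and the log2 fold change of -1.13 ± 1.53 did not pass (edgeR adjusted p = 0.546). Nor did it with voom (-4.95, adjusted p = 0.398), or without aldh3a1_KO replicates 1, 5 and 6 (edgeR adjusted p = 0.0723), where every knockout library left was at 0 and the fitted fold change is no measure of size. A library at 0 beside another of the same genotype with at least 100 counts was seen in 105 of 22182 genes, or 0.473%, and in both genotypes at once in 10 genes, or 0.0451%. These counts were taken after the ncapg values were seen.

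Of the 5 measured genes on each side of ncapg in the gene table, 6 were tested by edgeR. Of these fam184b, slit2 and LOC110439261 were called higher, against 26.0% of all genes. The fam184b call was lost with voom (adjusted p = 0.0552) and with the replicate block (edgeR adjusted p = 0.0670). It was also lost without aldh3a1_KO replicates 1, 5 and 6 (log2 fold change 0.62, edgeR adjusted p = 0.2055). The ncapg neighbour lcorl, whose span overlaps that of ncapg in the gene table, had 41.2 to 46.5 CPM in aldh3a1_KO replicates 1 to 5 and 96.9 CPM in replicate 6, and 37.5 to 55.2 CPM in WT. On the other side fam184b had 4.38 to 44.2 CPM in replicates 1 to 5 of aldh3a1_KO and 130 CPM in replicate 6, and 2.39 to 6.56 CPM in WT. Replicate 6, the knockout library with ncapg, was thus also the highest of all 11 libraries for both neighbours. WT replicates 1 to 3, which had ncapg, were also above WT replicates 4 and 5, by more for fam184b (5.81 to 6.56 against 2.39 to 2.72 CPM) than for lcorl, where the lowest of the 3 was level with WT replicate 5. The other 4 tested neighbours did not have their highest knockout value in replicate 6: haspin was at 20.9 CPM there, within 9.29 to 23.8 CPM over aldh3a1_KO, and n4bp2, slit2 and LOC110439261 likewise lay inside their knockout range. Among neighbours too scarce to test, rhoh had 11 rounded counts in aldh3a1_KO replicate 6 and 0 in replicates 1 to 5. In WT rhoh had 3 and 2 in replicates 2 and 3 and 0 in replicates 1, 4 and 5, while chrna9a had 0 in aldh3a1_KO replicate 6. The spans of ncapg and lcorl overlap in a gene table of another assembly than that used for the counts. Whether any reads were shared between these genes was not tested, and the use of strand is not given in the sources used here.

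The shared ATPase genes smc2 and smc4 were also lower in aldh3a1_KO. For smc2 the libraries had 5.24, 13.2, 9.53, 11.6, 3.07 and 4.94 TPM in aldh3a1_KO, and 15.4, 18.7, 19.7, 10.8 and 10.7 TPM in WT. For smc4 they had 15.1, 19.2, 15.1, 18.9, 10.2 and 11.8 TPM in aldh3a1_KO, and 23.8, 32.2, 34.2, 17.8 and 17.9 TPM in WT. Both genes had overlapping groups, with aldh3a1_KO replicate 5 the lowest library and WT replicates 2 and 3 the highest.

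The edgeR test called both lower, smc2 at -0.76 ± 0.28 (adjusted p = 0.0335) and smc4 at -0.52 ± 0.20 (adjusted p = 0.0429). Of the 23 alternatives, the smc2 call was lost in 9 and the smc4 call in 15. For smc2 the adjusted p rose to between 0.0538 and 0.107 without WT replicate 1, 2 or 3 or without aldh3a1_KO replicate 1, 3, 5 or 6. For smc4 it rose to between 0.0539 and 0.157 without WT replicate 1, 2 or 3 or without any single aldh3a1_KO library. Upper-quartile factors ended both calls (adjusted p = 0.0532 for smc2 and 0.0981 for smc4), and that of smc4 also ended with DESeq2 size factors (0.0815), the DESeq2 Wald test (0.0774) and no filter (0.0651). Without aldh3a1_KO replicates 1, 5 and 6 the log2 fold change was -0.34 for smc2 (edgeR adjusted p = 0.195) and -0.45 for smc4 (adjusted p = 0.0822).

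**Figure D2:**
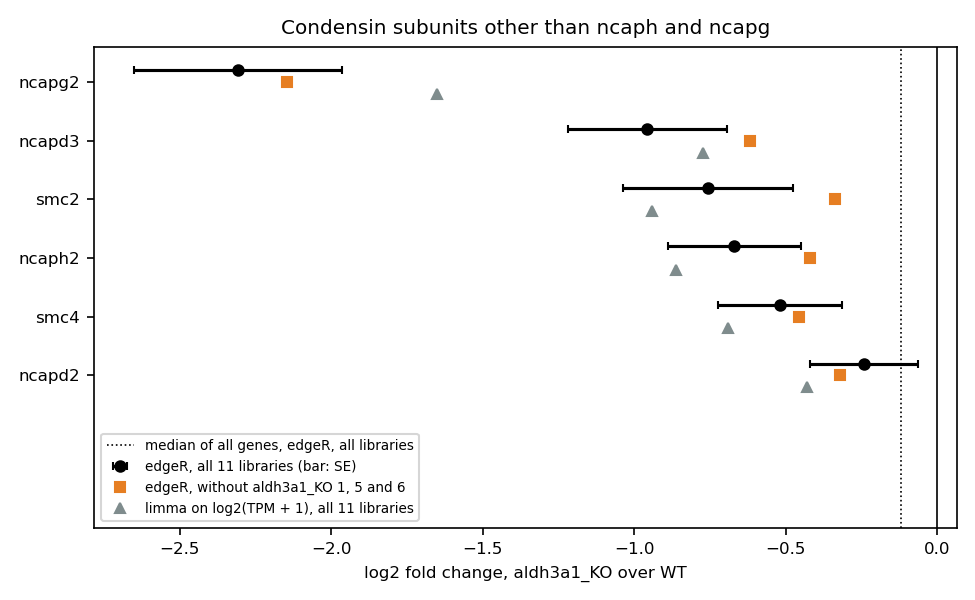
Log2 fold change of aldh3a1_KO over WT for the 6 subunits with counts in every library, from edgeR with all libraries (circles, bars are SE), edgeR without aldh3a1_KO 1, 5 and 6 (squares) and limma on log2(TPM + 1) (triangles). All points lie below 0; ncapg2 lies farthest left at -2.31, -2.15 and -1.65, and ncapd2 closest to the dotted median of all genes.

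Of the 7 subunits other than ncaph, 5 were called lower and 0 higher by edgeR, and ncapg and ncapd2 did not pass. At an unadjusted p under 0.05 the count higher was also 0, as it was with DESeq2, voom and limma on log2(TPM + 1). Over all genes 29.3% were called lower and 26.0% higher by edgeR, and 6244 of 22182 were higher at an unadjusted p under 0.05. DESeq2, voom and limma on log2(TPM + 1) called 6684, 6533 and 4389 of 22182 genes higher. The set was drawn up from this same contrast and is small, so nothing is read from the subunit counts in either direction. Without aldh3a1_KO replicates 1, 5 and 6 the only subunit still called was ncapg2, and without replicate 1 alone there were 2, ncapg2 and ncapd3. Over all genes, 5893 of 22580 and 5483 of 21807 were called lower in these settings, in the same order. The median log2 fold change of the 7 was -0.76, against -0.12 for all genes. Measured from that all-gene median, ncapg2 stood at -2.19, ncapd3 at -0.84, smc2 at -0.64, ncaph2 at -0.55, smc4 at -0.40 and ncapd2 at -0.12. The log2 fold changes of all 7 were below 0 in each of the alternatives in which the gene was fitted. These alternatives reuse the same libraries, and the share of all genes below 0 was not counted, so nothing is read from the signs. Every aldh3a1_KO library lay below every WT library in CPM for 1 of the 7, ncapg2, and for 20.0% of all genes tested. In TPM it was also ncapg2 alone, against 23.1% of all genes. On log2(TPM + 1) limma called the same 5 subunits lower, where it called 36.0% of all genes lower.

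The order of the subunits by TPM differed between the genotypes mainly in the place of ncaph. In aldh3a1_KO the means ran from ncapd2 at 19.7 ± 2.93, smc4 at 15.0 ± 3.63, ncaph2 at 10.5 ± 3.94 and smc2 at 7.94 ± 4.10 to ncapd3 at 1.53 ± 0.698, ncapg2 at 0.883 ± 0.358, ncapg at 0.834 ± 1.94 and ncaph at 0.0116 ± 0.0180 (SD, n = 6). In WT they ran from ncapd2 at 27.4 ± 6.90, smc4 at 25.2 ± 7.72, ncaph2 at 18.96 ± 3.42, smc2 at 15.1 ± 4.27 and ncaph at 11.1 ± 6.73 to ncapg2 at 5.04 ± 1.78, ncapd3 at 3.32 ± 1.16 and ncapg at 2.62 ± 2.72 (SD, n = 5). The library ranges of neighbours in each order overlapped, except smc2 and ncapd3 in aldh3a1_KO. Within every library, however, smc4 was above ncaph2 and ncaph2 above smc2, and ncapd2 was above smc4 except in WT replicate 3. The ncapg2 value was above that of ncapd3 in every WT library, but below it in aldh3a1_KO replicates 2, 3, 4 and 6. Within WT, replicates 4 and 5 had the lowest 2 values of ncaph2, ncapg2, ncapd2, ncapd3, smc2 and smc4 and no ncapg, while replicate 5 had the highest ncaph.

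Summed TPM of ncaph, ncapg and ncapd2, found only in condensin I, was 18.1 to 23.8 in aldh3a1_KO and 29.1 to 53.6 in WT. In aldh3a1_KO ncapg added at most 0.219 TPM in replicates 1 to 5 and 4.78 TPM in replicate 6. In WT ncaph, whose level chose the set, added 5.35 to 21.7 TPM. The ncapd2 values overlapped, at 15.4 to 23.8 TPM in aldh3a1_KO and 19.4 to 34.6 TPM in WT. The sum therefore gives no view of condensin I apart from ncaph. The same sum for condensin II was 6.94 to 18.5 in aldh3a1_KO and 20.8 to 33.3 in WT. Of its 3 genes, ncaph2 and ncapd3 overlapped between the genotypes and only ncapg2 did not. In TPM 23.1% of all genes had every aldh3a1_KO library below every WT library, so nothing is read from the gap between the sums. Of the ratios between paired subunits, smc2 to smc4 and ncapd2 to ncapd3 had a wider range in aldh3a1_KO than in WT, and ncaph to ncaph2 a wider range in WT. The ncapg to ncapg2 ratio was 0 in aldh3a1_KO replicates 1 to 4, 0.245 in replicate 5 and 28.1 in replicate 6, against 0 to 0.941 in WT. Its wider range in aldh3a1_KO rests on replicate 6 alone. The smc2 to smc4 ratio was 0.348, 0.301 and 0.418 in aldh3a1_KO replicates 1, 5 and 6 and 0.617 to 0.689 in replicates 2 to 4, against 0.576 to 0.647 in WT. The ncapd2 to ncapd3 ratio was 20.6, 25.1 and 14.2 in aldh3a1_KO replicates 1, 5 and 6 and 8.09 to 12.9 in replicates 2 to 4, against 7.24 to 9.96 in WT. Those 3 knockout libraries had mitochondrial shares of 25.9, 19.8 and 20.9%, and the part of that share in the ratios was not tested.

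**Figure D3:**
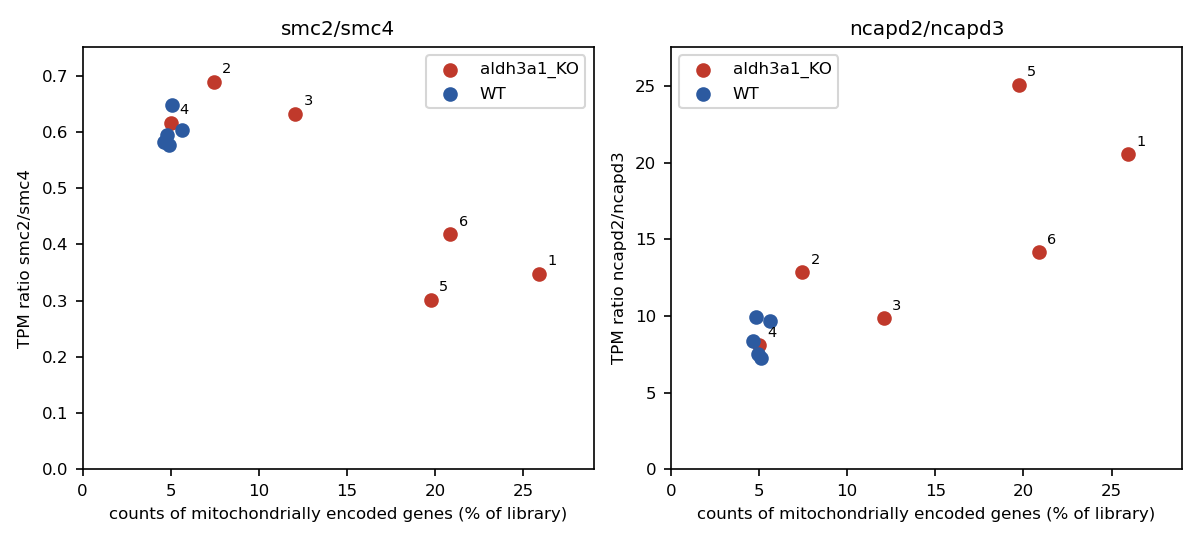
TPM ratios smc2/smc4 (left) and ncapd2/ncapd3 (right) of each library against its share of counts in mitochondrially encoded genes, with aldh3a1_KO replicates numbered. Replicates 1, 5 and 6, at 19.8 to 25.9%, have the lowest smc2/smc4 and the highest ncapd2/ncapd3 ratios, and the other knockout libraries lie nearer to WT.

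The near absence of ncaph from aldh3a1_KO was shared by 2 genes close to it. Gene order here counts only the genes measured, so other genes of the RefSeq table are skipped. Of the 5 measured genes on each side, 9 were tested by edgeR. Of these 4 were called lower, 3 higher and 2 neither, against 29.3% of all genes lower and 26.0% higher. The next gene, vamp8, which encodes a membrane fusion protein, had 1 rounded count in the 6 aldh3a1_KO libraries, from replicate 5, and 95, 64, 110, 84 and 289 counts in WT replicates 1 to 5. The third gene on that side, vamp5, another of that family, had 0 counts in aldh3a1_KO and 63, 62, 144, 79 and 331 in WT. In both, WT replicate 5 was the highest library, as it was for ncaph.

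Between vamp8 and vamp5 the noncoding gene si:dkeyp-86b9.5 was present in every library, at 28 to 63 counts in aldh3a1_KO and 20 to 83 in WT. It did not pass (edgeR log2 fold change 0.82 ± 0.38, adjusted p = 0.0826). It was called higher in 5 alternatives, among them the DESeq2 Wald test (adjusted p = 0.0389) and voom (adjusted p = 0.0114), and its sign was negative on TPM scales. On the other side of ncaph, zgc:110329 had 6, 53, 17, 70, 1 and 0 counts in aldh3a1_KO, and 246 to 477 in WT (edgeR log2 fold change -3.15 ± 0.67, adjusted p = 0.00136). Further out, the dynein gene dnah10 had a log2 fold change of 0.89 ± 0.31 (edgeR adjusted p = 0.0272, not passed in 7 alternatives) and slc4a5a rose by 1.93 ± 0.36 (adjusted p = 0.000561), while nsmfb fell by 1.58 ± 0.26 (adjusted p = 0.000191). In this gene order, which is of another assembly than the counts, si:dkeyp-86b9.5 thus lay among genes near absent from aldh3a1_KO. What this means for the locus was not tested.

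**Figure D4:**
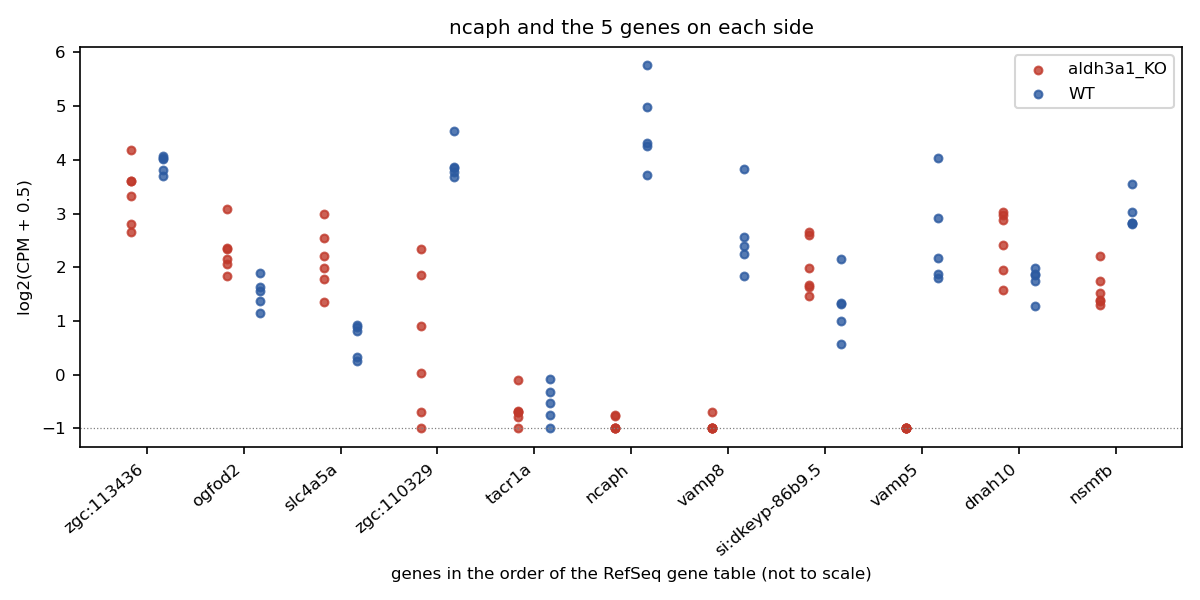
Level on the log2(CPM + 0.5) scale of ncaph and the 5 measured genes on each side, in gene order. Each point is a library, with aldh3a1_KO left of WT, and the dotted line is 0 counts. Only ncaph, vamp8 and vamp5 have all knockout libraries at or next to the line with all WT libraries above it, while si:dkeyp-86b9.5 between them is present in both genotypes.

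Over the whole table, 5 genes had at most 3 counts summed over the aldh3a1_KO libraries and at least 30 in each WT library, a rule set after the ncaph values were seen. They were ncaph, vamp8, vamp5, usf1l and adm2a. The first 4 lie on the same chromosome in the gene table, with usf1l 43 measured genes from ncaph. By the same rule turned round 1 gene, zfx, had 2460 counts in aldh3a1_KO and 0 in WT. By the correlation of log2(CPM + 0.5) with ncaph over the 11 libraries, which fall into 2 separate groups, the genes most like ncaph were vamp8 (r = 0.993), vamp5 (0.989), usf1l (0.986), tgfb3 (0.984) and xkr7a (0.983), from 20566 genes. The condensin subunits stood lower, with ncapg2 at 0.861 (rank 2162), ncapd3 at 0.675, ncaph2 at 0.661, smc2 at 0.598, smc4 at 0.576, ncapd2 at 0.325 and ncapg at 0.321 (rank 9527). Since ncaph separates the genotypes, r mostly restates each gene's genotype difference and is no further sign that a subunit follows ncaph.

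Condensin was set beside other gene lists of chromosome structure and division. Of 23 genes of cohesin, the related ring that holds sister chromatids together, 9 fell and 2 rose by edgeR, where 29.3% of all genes fell and 26.0% rose, with a median log2 fold change of -0.41. Its ATPase gene smc3 fell by 3.91 ± 0.65 (adjusted p = 0.000239), with 15.6, 13.0, 4.92, 10.4, 10.01 and 0 CPM in aldh3a1_KO and 75.8 to 211 CPM in WT. The loader gene mau2 fell by 2.17 ± 0.37 (adjusted p = 0.000282), and nipblb, which encodes its loading partner, rose by 1.72 ± 0.25 (adjusted p = 0.000101). The related gene nipbla did not rise, at -0.66 ± 0.31 (edgeR adjusted p = 0.0797), with 41.6 CPM in aldh3a1_KO and 66.1 CPM in WT. The cohesin kleisin genes rad21a (-0.51 ± 0.19, adjusted p = 0.0368) and rad21b (-1.25 ± 0.22, adjusted p = 0.000391) also fell, but rad21a did not pass in 13 alternatives. Neither approached the near absence of ncaph.

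Of 7 genes of the SMC5/6 complex, which acts in DNA repair, 2 fell and 0 rose by edgeR. Over all genes 29.3% fell, close to the share here, and 26.0% rose. The count higher was also 0 at an unadjusted p under 0.05, and by DESeq2, voom or limma on log2(TPM + 1). With 7 genes nothing is read from it. The fallers were nsmce2 (-0.95 ± 0.29, edgeR adjusted p = 0.0119) and the kleisin gene nsmce4a (-0.68 ± 0.23, adjusted p = 0.0249), while slf2 was at -0.46 ± 0.19 (adjusted p = 0.0571). Without aldh3a1_KO replicates 1, 5 and 6, 0 of the 7 were called lower by edgeR, and 2 were lower at an unadjusted p under 0.05. Over all genes, 5893 of 22580 were called lower in that setting. The call for nsmce4a was also lost without WT replicate 1 and without aldh3a1_KO replicate 1 or 5 (adjusted p of 0.0560 to 0.0832).

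Of 17 genes that regulate condensin or work beside it on mitotic chromosomes, 5 fell and 3 rose by edgeR, with a median of -0.28. Over all genes 29.3% fell and 26.0% rose. The share that fell was near that of all genes, and neither count is read as a result about the list. The risers were incenp (2.11 ± 0.33, edgeR adjusted p = 0.000156) and birc5b (2.37 ± 0.42, adjusted p = 0.000370), of the Aurora B complex, and akap8l (0.93 ± 0.15, adjusted p = 0.000214). Of these birc5b was scarce, at 1.99 CPM in aldh3a1_KO and 0.376 CPM in WT. Its more abundant relative birc5a did not rise, at 33.5 CPM in aldh3a1_KO and 45.5 CPM in WT (-0.44 ± 0.21, edgeR adjusted p = 0.0904). Fallers were the topoisomerase II genes top2a and top2b, the Aurora B complex gene cdca8, the cyclin gene ccna2 and the mitotic kinase gene plk1. Without aldh3a1_KO replicates 1, 5 and 6 the list had 2 genes called lower and 4 higher. With those libraries left out, 5893 of 22580 genes were called lower and 5429 higher.

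Of 31 kinetochore genes, 10 fell and 1 rose by edgeR (median -0.45). The share of fallers was near the 29.3% of all genes, while the share of risers was below the 26.0% of all genes. The fallers were led by cenpq (-2.73 ± 0.32, edgeR adjusted p = 2.5e-05), cenpi (-1.75 ± 0.27, adjusted p = 0.000138) and the spindle checkpoint gene mad2l1 (-1.21 ± 0.28, adjusted p = 0.00222). Of 26 replication genes, 15 fell and 0 rose by edgeR (0 higher also at an unadjusted p under 0.05 and by DESeq2, voom or limma on log2(TPM + 1)), against 29.3% of all genes lower and 26.0% higher, with a median of -0.74 that is close to that of the condensin subunits. The DNA polymerase gene pold1 (-2.91 ± 0.47, edgeR adjusted p = 0.000175), the clamp loader gene rfc3 (-1.10 ± 0.22, adjusted p = 0.00100) and the thymidylate synthase gene tyms (-1.24 ± 0.26, adjusted p = 0.00107) led it. Without aldh3a1_KO replicates 1, 5 and 6, 11 replication genes and 6 kinetochore genes were called lower, against 5893 of 22580 genes.

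**Figure D5:**
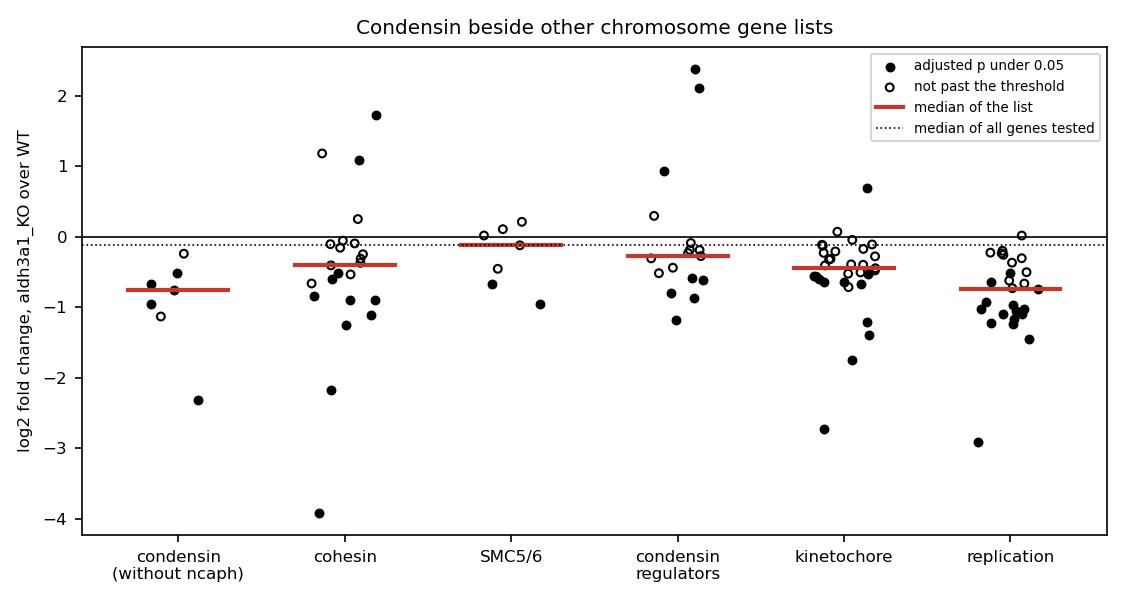
Log2 fold change of aldh3a1_KO over WT for each tested gene of 6 lists, filled where the edgeR adjusted p is under 0.05, with list medians in red and the median of all genes dotted. The condensin subunits without ncaph have a median of -0.76 and the replication list one of -0.74, while the SMC5/6 list lies at the all-gene median of -0.12.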

How the data were processed

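Per the submitters' processing notes, reads were trimmed with Trim Galore 0.6.4 and quantified with kallisto (version given as 0.4.6) against danRer11. The deposited files hold expected counts (kallisto's estimated counts, not whole) and TPM per Entrez gene, both made by the authors. How transcripts were summed to genes is not given in the sources used here. Symbols and gene order came from a RefSeq table on another assembly, GRCz12tu, which matched 25812 of 30243 identifiers, so no coordinates are printed. Places in gene order were counted over the measured genes only.

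Counts were rounded, filtered with filterByExpr, scaled by TMM and tested with the robust edgeR 4.0.16 quasi-likelihood test (R 4.3.3) over 22182 genes, two-sided, with Benjamini-Hochberg adjustment. A gene was called at an adjusted p under 0.05. The SE is the log2 fold change divided by the root of F. CPM are TMM-scaled. The interval for ncaph is exact binomial. An upper limit at 0 counts uses 3 counts over the group. On data simulated for this comparison, over 21949 genes, the test called 22 of 100 genes given a 2-fold change, 96 of 100 given a 4-fold change, and 8 given none. The simulated counts had the same dispersion in every gene, few changed genes and no outlying libraries, so these rates need not hold in the real data. Figures used matplotlib 3.10.9.

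The subunits and lists were chosen with earlier results of these data known. Named were the subunits, aldh3a1, 3 genes per list with the smallest adjusted p and other kleisin genes. The 5 measured genes each side of ncaph and the 5 most like it were also named. Genes beside ncapg, the 5 nearly absent genes, the fallers of the regulator list, nipbla and birc5a were added after their values were seen. No other symbol in the table begins with ncap. Of the listed genes, 7 of 8 for SMC5/6, 17 of 18 for regulators, 31 of 34 for kinetochore and 26 of 27 for replication were matched.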

Additional observations from a re-analysis of the deposited data

Results flagged for a closer look

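In 90 sets of libraries of a single gene and genotype, 9 had a library far from the rest by Dixon's ratio on log2(CPM + 0.5), where chance gives about 1 in 20. Among condensin subunits, both were in aldh3a1_KO replicate 6: ncapg at 22.4 CPM against 0 to 0.834 in the other 5, and ncapg2 at 0.931 CPM against 3.90 to 5.45. The same library had 0 CPM of smc3 against 4.92 to 15.6, and 96.9 CPM of lcorl against 41.2 to 46.5. WT replicate 5 had 5.49 CPM of nsmce2 against 7.01 to 7.55 in other WT libraries, and 22.8 CPM of zgc:110329 against 12.3 to 14.1. In aldh3a1_KO, replicate 2 had 0.948 CPM of birc5b against 1.82 to 2.55 and 0.474 CPM of xkr7a against 0.186 to 0.264, and replicate 1 had 0.439 CPM of tacr1a against 0 to 0.130. No cause was tested.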

How the results depend on the processing

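The 23 alternatives covered scaling, filters, tools, TPM scales, a replicate block and left-out libraries. The count of condensin subunits called lower was 5, and 3 with upper-quartile factors, 1 without aldh3a1_KO 1, 5 and 6, and 2 to 5 when 1 library was left out. Over all genes the numbers called lower, in the same order, were 6508 and 5607 of 22182, 5893 of 22580, and 5348 to 6350 of 21806 to 22379. Left-out libraries gave 4 to 12 for cohesin, 1 to 3 for SMC5/6, 3 to 7 for regulators and 5 to 12 for kinetochore genes called lower. Without aldh3a1_KO 1, 5 and 6 these were 5, 0, 2 and 6, with 2 kinetochore genes higher, where 5429 of 22580 genes were higher. With voom quality weights 9 of 17 regulators and 20 of 31 kinetochore genes were lower, both above the share of all genes (8017 of 22182). Kinetochore genes called lower numbered 17 on log2(TPM + 1) and 16 on log2(TPM + 0.1), and 0 were called higher on these and on log2(TPM + 1) with no filter. Over all genes, 7990 and 7855 of 22182 were called lower on the first 2 scales. The numbers called higher were 4389, 4351 and, with no filter, 5074 of 29283. With the replicate block 6 kinetochore genes were lower, and 4 condensin subunits, with smc4 no longer called (edgeR adjusted p = 0.102). Over all genes 5521 of 21879 were lower there. Same-numbered libraries correlated at 0.0109 to 0.154 in their deviations. For WT replicates 1 and 2 the knockout library with the highest correlation had the same number, and for WT replicates 3, 4 and 5 it did not. The labels name no pairs, so the numbers are not read as pairs. Signs turned for slf2 (0.23 and 0.27 on log2(TPM + 1) and log2(TPM + 0.1)), si:dkeyp-86b9.5 (-0.36 and -0.45), lcorl (-0.000482 with voom, -0.0424 without aldh3a1_KO 1, 5 and 6) and the SMC5/6 median (0.0413 without aldh3a1_KO replicate 6). Causes were not tested. At 0 to 7 counts in 6 or more libraries, the values of ncaph and ncapg there are at or near the floor. WT replicates 4 and 5, with 0 counts of ncapg, held 18.1 and 19.5 M counts, against 19.4 to 19.97 M in WT replicates 1 to 3.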
